A study of Rattus norvegicus with 21 samples.

Results

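The ubiquitin-specific protease genes are described here in the dentate gyrus of stressed and antidepressant-treated rats. The set was defined as every probe set with exactly 1 annotated symbol made of Usp, a number and any trailing lower-case letters. A gene with several probe sets was represented by the brightest of them on average. This gave 40 genes (42 probe sets, since Usp13 and Usp54 had 2 each) among 14506 genes on the array, and 1 further probe set that also carried the name of another gene was left out. The family was selected on its measured values in 1 contrast, since Usp14 and Usp15 lay higher with imipramine than with stress alone, so that contrast is given below as a description without a test. Usp6nl matches the naming pattern but encodes a GTPase-activating protein for a Rab protein and not a protease, and it is kept only because the rule takes names.

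RNA came from the dentate gyrus, the hippocampal field of granule neurons, of 18 wild-type male Wistar rats aged 2 months, 3 in each of 6 groups. Control rats had neither stress nor drug, and stress rats went through unpredictable chronic mild stress for 6 weeks. The other 4 groups went through the same stress and received, by daily intraperitoneal injection in the last 2 weeks, fluoxetine (10 mg/kg in water), imipramine (10 mg/kg in saline), tianeptine (10 mg/kg in saline) or agomelatine (40 mg/kg in hydroxyethylcellulose). The labels do not say whether control and stress rats were injected, so drug, vehicle and injection cannot be told apart. Each of the 3 control animals was measured on 2 arrays, whose values were averaged. Values are log2 expression from Affymetrix arrays, and a difference of 1 doubles the level.

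Ubiquitin-specific proteases are the largest family of deubiquitinating enzymes. They are cysteine proteases that cut ubiquitin off tagged proteins or take ubiquitin chains apart, and so oppose the ligases that mark proteins for the proteasome, for sorting in endosomes or for altered signalling. In neurons members of the family are known to act at synapses, on mitochondria, on chromatin and on the proteasome itself, where Usp14 trims chains from proteins that have docked for degradation.

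The array medians lay between 7.99 and 8.10, and granule neuron markers were strongly expressed, with Prox1 at a mean log2 level of 11.7 in control rats. Of the 40 Usp genes, 36 passed the filter on low signal and were tested among 10804 genes. The 4 below it were Usp18, Usp26, Usp43 and Usp44. Between the 3 animals of a group the median SD of the tested Usp genes was 0.0454 (imipramine) to 0.0767 (agomelatine), and that of all tested genes was 0.0631 to 0.114 in the same groups.

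Promoter sequences are shown for the genes on which the results turn, Usp14 and Usp15 with imipramine and Usp25 and Usp21 with agomelatine. Each is RefSeq sequence of assembly GRCr8, from 250 bases before to 50 bases after the gene's start, written 5′ to 3′ on the gene's strand, and capitals mark GC boxes (GGGCGG or its reverse complement CCGCCC, overlapping matches counted).
Usp14 promoter, chr18:1330287-1330586 on the minus strand: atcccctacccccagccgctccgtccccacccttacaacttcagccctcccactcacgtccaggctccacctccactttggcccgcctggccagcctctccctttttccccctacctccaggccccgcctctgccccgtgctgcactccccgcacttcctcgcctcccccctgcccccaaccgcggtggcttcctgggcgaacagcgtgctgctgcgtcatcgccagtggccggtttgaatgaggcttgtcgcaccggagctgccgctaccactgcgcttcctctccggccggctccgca
Usp15 promoter, chr7:60734050-60734349 on the minus strand: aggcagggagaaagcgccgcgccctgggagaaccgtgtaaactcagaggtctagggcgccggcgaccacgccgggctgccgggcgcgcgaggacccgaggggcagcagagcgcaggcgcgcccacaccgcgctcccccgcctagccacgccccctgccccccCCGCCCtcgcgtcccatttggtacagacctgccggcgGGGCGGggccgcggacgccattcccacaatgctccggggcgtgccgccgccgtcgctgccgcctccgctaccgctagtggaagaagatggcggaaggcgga
Usp25 promoter, chr11:29090403-29090702 on the plus strand: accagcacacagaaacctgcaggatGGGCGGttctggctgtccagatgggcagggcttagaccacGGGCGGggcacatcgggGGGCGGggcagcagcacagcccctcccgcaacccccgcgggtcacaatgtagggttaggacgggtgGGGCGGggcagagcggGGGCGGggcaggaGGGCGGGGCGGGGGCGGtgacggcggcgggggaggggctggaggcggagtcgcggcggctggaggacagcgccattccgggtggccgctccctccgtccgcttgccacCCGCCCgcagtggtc
Usp21 promoter, chr13:86241131-86241430 on the minus strand: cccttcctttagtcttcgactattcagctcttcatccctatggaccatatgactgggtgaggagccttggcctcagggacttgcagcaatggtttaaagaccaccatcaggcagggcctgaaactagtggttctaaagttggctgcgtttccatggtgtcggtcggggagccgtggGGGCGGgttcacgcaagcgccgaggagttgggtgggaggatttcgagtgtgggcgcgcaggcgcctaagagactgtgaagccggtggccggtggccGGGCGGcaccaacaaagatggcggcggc
The Usp14 promoter held no GC box, the Usp15 and Usp21 promoters held 2 each, and the Usp25 promoter held 9. Of the 40 Usp genes, 32 matched an entry in the promoter table, and 22 of these 32 held a GC box, against 33.1% of all 33469 promoters of the same length. The median GC content was 63.3% in the Usp promoters and 51.7% in all 33469. These were all entries of that length in the promoter table, not limited to the 14506 genes on the array. The 2 sets are therefore unlike, and a gap between them cannot be read as particular to the Usp family. A CCAAT box (CCAAT or ATTGG) was found in 9 of the 32 Usp promoters (37.5% of all promoters), an E-box (CACGTG) in 4 (6.42%), a TATA box (TATAAA or TTTATA) in 3 (14.2%) and a cyclic AMP response element (TGACGTCA) in 0 (1.83%). None of these other motifs lay in the 4 printed windows. The matches are letters in a window and were not tested as binding sites.

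Usp14, the deubiquitinase bound to the cap of the proteasome, was highest with imipramine. The 3 stress animals had log2 levels of 11.18, 11.20 and 11.15, and the 3 imipramine animals had 11.39, 11.65 and 11.49. Every imipramine animal lay above every stress animal. The difference was 0.33 (SE 0.079), or 1.26-fold. Usp15, which removes ubiquitin from receptors and transcription factors of transforming growth factor signalling and opposes the ligase parkin on mitochondria, showed the same order. Its levels were 9.79, 9.82 and 9.80 with stress alone and 10.05, 10.19 and 10.08 with imipramine. Again the groups did not overlap, and the difference was 0.31 (SE 0.066), or 1.24-fold. These differences led to the choice of the genes and carry no test.

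The control animals had Usp14 levels of 11.16, 11.13 and 11.31 and Usp15 levels of 9.69, 9.80 and 9.84. All 3 imipramine animals lay above all 3 control animals for both genes. Against control the difference was 0.31 (SE 0.079) for Usp14, with an adjusted p of 0.368 by limma, and 0.33 (SE 0.066) for Usp15, with an adjusted p of 0.203. Neither passed the threshold of 0.05 on the adjusted p, and the comparison uses the imipramine animals that led to the choice. With the repeat control arrays alone the adjusted p by limma was 0.0418 for Usp14 and 0.0185 for Usp15, and with array weights 0.0313 and 0.0132. Each gene failed to pass in 12 of 14 alternatives, with an adjusted p of up to 0.999 for Usp14 and 0.963 for Usp15. All of these fits include imipramine animals that led to the choice, so none is an independent test. On the 2 arrays of a control animal Usp15 differed by up to 0.24 and Usp14 by up to 0.13, with mixed signs.

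Fluoxetine, tianeptine and agomelatine were compared with control on animals that the choice did not use. Usp15 was at 9.93, 9.97 and 9.92 in the tianeptine animals, all above the highest control. The agomelatine animals, at 10.03, 9.88 and 10.02, also all lay above it. That control animal, at 9.84, is the average of a first array at 9.96 and a repeat array at 9.72. Its first array alone lay above tianeptine 1 and 3 and above agomelatine 2. The difference from control was 0.16 (95% confidence interval 0.02 to 0.30) with tianeptine and 0.20 (0.06 to 0.34) with agomelatine, with adjusted p of 1 and 0.0675 by limma. Without agomelatine 2, the lowest of that group, the adjusted p of the agomelatine difference was 0.037 by limma. In 13 of 14 alternatives this difference did not pass, with an adjusted p of up to 0.235. With fluoxetine Usp15 was at 9.95, 9.87 and 9.72, overlapping control, and the difference was 0.07 (-0.07 to 0.21).

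Usp14 was at 11.30, 11.39 and 11.39 with tianeptine, at 11.50, 11.31 and 11.29 with agomelatine and at 11.33, 11.33 and 11.06 with fluoxetine. Each of these groups overlapped control, whose highest animal was at 11.31. The differences from control were 0.16 (-0.01 to 0.32) with tianeptine, 0.17 (0.00 to 0.34) with agomelatine and 0.04 (-0.13 to 0.20) with fluoxetine, with adjusted p of 1, 0.187 and 0.987 by limma. Stress alone lay -0.02 from control for Usp14 and 0.02 for Usp15. These comparisons share the control animals, so they are not independent of each other.

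**Figure D1:**
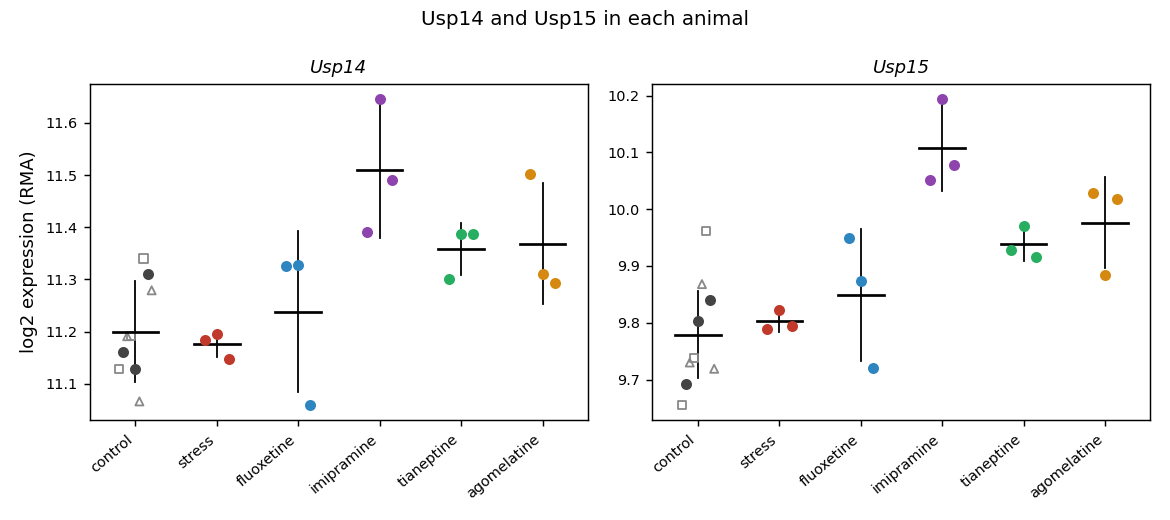
Log2 expression (vertical axis) of Usp14 and Usp15 in each of the 6 groups (horizontal axis). Filled points are animals, horizontal bars the mean and vertical bars the SD of 3 animals, and open squares and triangles are the first and repeat arrays of each control animal. The imipramine animals lie above all stress and control animals for both genes, at 11.39 to 11.65 for Usp14 and 10.05 to 10.19 for Usp15.

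Usp4 and Usp11 are the closest relatives of Usp15 and share its domain layout. Usp4 was at 10.53, 10.58 and 10.65 with stress and at 10.53, 10.54 and 10.51 with imipramine, and the groups overlapped. Its difference from control with imipramine was -0.02 (-0.13 to 0.09). Usp11 was at 11.14, 11.18 and 11.31 with stress and at 11.26, 11.09 and 11.15 with imipramine, again overlapping. Its difference from control with imipramine was 0.07 (-0.05 to 0.19). Neither gene passed in any tested comparison. The largest difference of Usp11 from stress, -0.16 with agomelatine, had an adjusted p of 0.0758 by limma.

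Over the whole family the differences of imipramine from stress lay on both sides of 0. Of the 36 tested genes 18 lay above 0 and 18 below, and the median difference was 0.001, while that of all tested genes was -0.023. With equal array medians 26 lay above 0 and 10 below, and with quantile normalisation once more 22 and 14, so the split moves with the scaling. Groups did not overlap for 8 of the 36, 4 higher and 4 lower, and for 19.7% of all tested genes, 7.16% higher and 12.6% lower. Besides Usp14 and Usp15 the highest were Usp26 at 0.19, which lay below the filter, Usp16 at 0.18 and Usp45 at 0.14. Usp16 removes ubiquitin from histones, and its imipramine animals (9.31, 9.64 and 9.42) overlapped the stress animals (9.43, 9.09 and 9.30). Usp45, which acts in DNA repair, was at 9.99, 10.06 and 10.02 with imipramine, above all stress animals (9.82, 9.91 and 9.90).

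The lowest differences of imipramine from stress were those of Usp18 at -0.33, which lay below the filter, Usp20 at -0.29, Usp5 at -0.21, Usp30 at -0.12 and Usp19 at -0.10. Usp20, which deubiquitinates cell surface receptors on their way back to the membrane, was at 9.54, 9.69 and 9.76 with stress and at 9.39, 9.33 and 9.42 with imipramine, without overlap. Usp5, the enzyme that takes free ubiquitin chains apart, was at 10.51, 10.66 and 10.67 with stress and at 10.41, 10.39 and 10.43 with imipramine, again without overlap. For both genes the control animals, as averages of 2 arrays, also lay above all imipramine animals, at 9.48 to 9.54 for Usp20 and 10.44 to 10.51 for Usp5. Their repeat arrays lay below the first arrays in all 3 animals, with mean differences of -0.15 for Usp20 and -0.12 for Usp5. Single repeat arrays, at 9.367 for Usp20 and at 10.425 and 10.395 for Usp5, lay below the highest imipramine animal (9.418 and 10.433). The differences from control were -0.14 for Usp20 and -0.08 for Usp5, with adjusted p of 0.674 and 0.818 by limma.

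Against control, 0 of the 36 Usp genes passed the test with imipramine, where 0.0185% of all tested genes passed. At an unadjusted p under 0.05 there were 3, Usp15, Usp14 and Usp45, where 8.27% of all tested genes were under it. Groups did not overlap for 8 of the 36, against 19.3% of all tested genes. The median difference of the Usp genes was 0.04, and that of all tested genes was -0.01.

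The proteasome, the protease that degrades ubiquitin-tagged proteins and to which Usp14 binds, consists of a 20S core that cuts proteins and a 19S cap that receives them. All 13 tested genes of the core lay below 0 in imipramine against stress, with a median of -0.10 and the lowest value, -0.33, in Psmb4, but with equal array medians 4 lay above 0, and with quantile normalisation once more 2. Of the 22 cap genes 7 lay above 0 and 15 below, with a median of -0.02, and with equal array medians 15 lay above 0 and 7 below. The highest cap genes were Psmc6 (0.35), Psmd1 (0.20) and Psmd6 (0.19), each without overlap. Groups did not overlap for 4 of the 22 cap genes, all higher, and for 19.7% of all tested genes, 7.16% higher. Psmc6 is an ATPase that unfolds proteins, Psmd1 a scaffold subunit of the base, and Psmd6 a structural subunit of the lid. Against control the genes Psmc6, Psmd1 and Psmd6 were at 0.47, 0.30 and 0.22, with adjusted p of 0.391, 0.43 and 0.382 by limma. There 0 of the 22 cap genes and 0 of the 13 core genes passed the test, where 0.0185% of all tested genes passed. At an unadjusted p under 0.05 there were 3 cap genes and 1 core gene, where 8.27% of all tested genes were under it.

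The other deubiquitinases had a median of -0.02 over 23 tested genes in imipramine against stress. Mindy1, which trims long ubiquitin chains, was lowest at -0.21. Uba6, an enzyme that activates ubiquitin, was at 0.18 and Uba1, the main activating enzyme, at -0.11. Among 10 tested genes for proteins that bind Usp enzymes the median was 0.04, with G3bp2, a partner of Usp10, highest at 0.15. The oligodendrocyte score, the mean over 10 tested genes of each animal's distance from the gene's mean, was -0.193 to -0.0843 with imipramine and -0.168 to 0.0395 with stress, and the granule neuron score over 5 genes 0.0135 to 0.0743 and -0.0993 to 0.0651. The vascular score over 7 genes was lower with imipramine, at -0.0865 to -0.0252 against 0.0254 to 0.11, as was the astrocyte score over 5 genes, at -0.00317 to 0.017 against 0.0402 to 0.0934. All 5 tested interneuron genes lay below 0 (median -0.22), as did 4 of 4 meningeal genes (median -0.21). So did 4 of 5 microglial (median -0.11) and 5 of 6 choroid plexus genes (median -0.27). Of 6 pyramidal neuron genes 2 lay above 0 (median -0.105). Of all 10804 tested genes 6436 also lay below 0, with a median of -0.023 that became 0.022 with equal array medians. The marker counts and scores were not repeated under that scaling. The part of these markers in the difference between imipramine and stress was not tested. In RNA from whole tissue fewer cells of a type and less RNA per cell cannot be told apart.

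**Figure D2:**
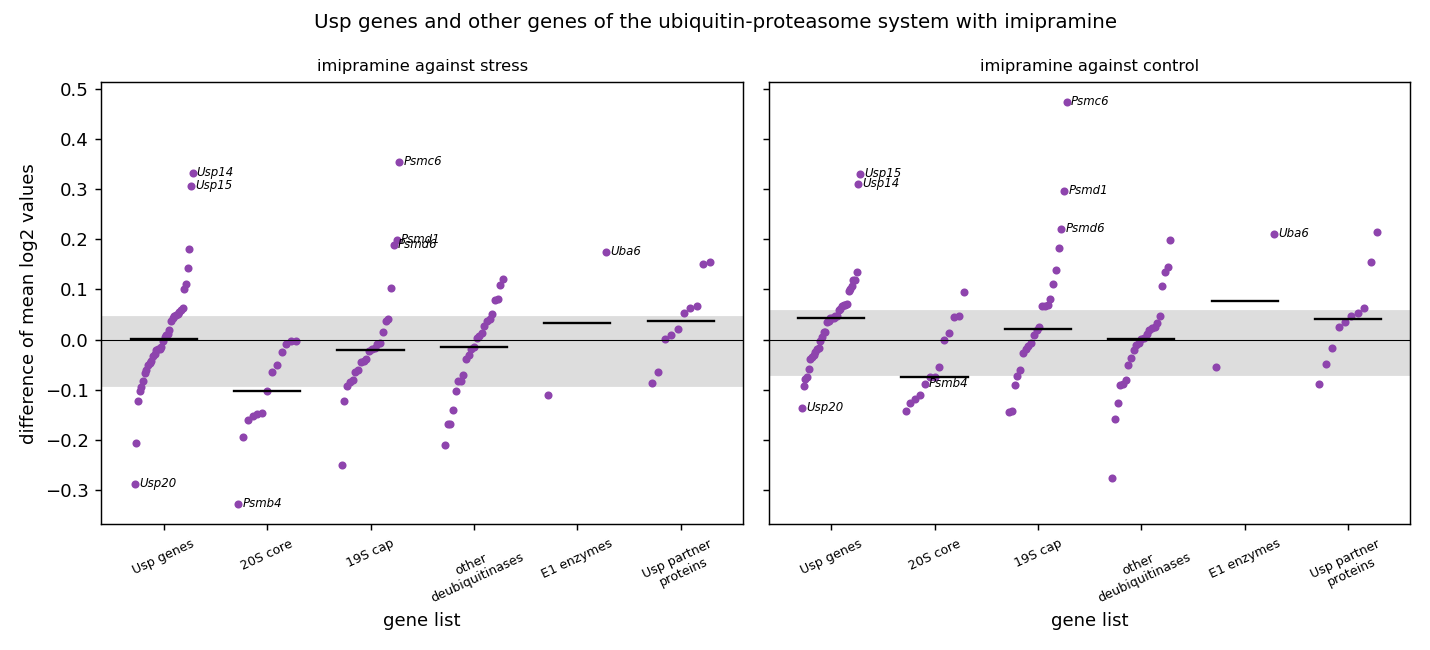
Difference of mean log2 values (vertical axis) of each tested gene in 6 gene lists (horizontal axis), for imipramine against stress (left) and against control (right). Points are genes, black bars the median of a list, and the grey band spans the 25th to 75th percentile of all tested genes. Usp14 and Usp15 lie at 0.33 and 0.31 on the left and the cap gene Psmc6 at 0.35, while all 13 core genes lie below 0 (9 of 13 with equal array medians).

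No Usp gene passed the test with stress alone, fluoxetine or tianeptine. Against control 0 of the 36 Usp genes passed the limma test with stress, with fluoxetine or with tianeptine, and 0% of all tested genes did in each. At an unadjusted p under 0.05 there were 0, 1 and 2 Usp genes, and 5.4%, 4.89% and 4.04% of all tested genes. Groups did not overlap for 5, 6 and 2 of the 36, against 13.1%, 11.5% and 10.9% of all tested genes. Against stress 0 passed with fluoxetine and 0 with tianeptine, where again 0% of all genes passed, with 1 and 3 Usp genes and 5.01% and 5.06% of all tested genes at an unadjusted p under 0.05. Groups did not overlap there for 1 and 3, against 10.8% and 11.2%.

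Usp2, whose transcript cycles with the circadian clock and whose protein stabilises clock components, lay highest above control among the 36 tested Usp genes with fluoxetine and with tianeptine. The control animals were at 10.21, 10.35 and 10.01 and the stress animals at 10.35, 10.20 and 10.22. Fluoxetine animals were at 10.36, 10.45 and 10.62 and tianeptine animals at 10.40, 10.46 and 10.44, all above every control and stress animal. The difference from control was 0.29 (SE 0.082) with fluoxetine and 0.24 (SE 0.082) with tianeptine, with adjusted p of 0.731 and 1 by limma, so neither passed. Imipramine animals, at 10.09, 10.27 and 10.25, and agomelatine animals, at 10.20, 10.27 and 10.18, overlapped control.

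In the tested comparisons with control or stress, agomelatine was the only drug with Usp genes past the test. Imipramine against stress was given no test. Against stress 6 of the 36 passed, where 10.8% of all tested genes passed. Usp25 and Usp32 rose (4.18% of all tested genes did), and Usp21, Usp13, Usp30 and Usp19 fell (6.58%). Against control 3 passed, where 9.59% of all tested genes passed, and Usp25 rose (5.28% of all tested genes did) while Usp21 and Usp13 fell (4.31%). Both comparisons use the same 3 agomelatine animals. Groups did not overlap for 13 of the 36 against stress and for 14 against control, where 25.2% and 25.7% of all tested genes did not.

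Usp25, a deubiquitinase of immune signalling and of protein degradation at the endoplasmic reticulum, was at 9.76, 9.51 and 9.66 in the agomelatine animals. The stress animals were at 9.35, 9.32 and 9.39 and the control animals at 9.20, 9.34 and 9.35. No animal of the other 5 groups reached the lowest agomelatine animal, the highest being an imipramine animal at 9.47. Usp25 rose by 0.34 (SE 0.076, 1.27-fold) against control, with an adjusted p of 0.00889 by limma, and by 0.29 (SE 0.076) against stress, with an adjusted p of 0.021. Against control it passed in 14 of 14 alternatives, with an adjusted p of 0.00249 to 0.0486, but not without stress 1 and agomelatine 1 together. Against stress the adjusted p was 0.0748 without stress 2, 0.0828 without agomelatine 1 and 0.0653 with array weights.

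Usp32, a membrane-bound member that acts in endosome transport, was at 10.88, 10.77 and 10.97 with agomelatine and at 10.73, 10.72 and 10.69 with stress. The groups did not overlap, though agomelatine 2 lay below 1 imipramine animal. Usp32 rose by 0.16 (SE 0.050) against stress, with an adjusted p of 0.0499 by limma. It missed the threshold without any 1 of the stress animals, without agomelatine 1 and without agomelatine 3, with an adjusted p of up to 0.168, and passed in 3 of 14 alternatives.

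Usp21, which removes ubiquitin from histones, was at 9.89, 10.01 and 9.71 with agomelatine. The stress animals were at 10.16, 10.18 and 10.31 and the control animals at 10.09, 10.19 and 10.19. All animals of the other 5 groups lay above all agomelatine animals, with the 2 arrays of a control animal averaged. The repeat array of control 1 alone, at 9.96, lay below agomelatine 2. Usp21 fell by 0.34 (SE 0.075) against stress, with an adjusted p of 0.00789 by limma that stayed under 0.05 in 14 of 14 alternatives (0.0046 to 0.0399). Against control it fell by 0.29 (SE 0.075), with an adjusted p of 0.0223. The call against control was lost without control 2, control 3, agomelatine 1 or agomelatine 3 (adjusted p 0.0913, 0.0619, 0.052 and 0.0758). The repeat control arrays of Usp21 lay below the first arrays in all 3 animals, by 0.16 on average, and with them alone the adjusted p was 0.117.

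Usp13, a relative of Usp5 that acts in autophagy and protein quality control, was at 9.32, 9.15 and 9.44 with agomelatine and at 9.68, 9.79 and 9.60 with stress. The control animals were at 9.50, 9.75 and 9.62, and no agomelatine animal reached either group. Usp13 fell by 0.38 (SE 0.097) against stress and by 0.32 (SE 0.097) against control, with adjusted p of 0.0177 and 0.0475 by limma. The call against stress was lost without stress 2 or agomelatine 2, and that against control without any 1 control animal, without agomelatine 1 and without agomelatine 2 (it passed in 4 of 14 alternatives). A second probe set of Usp13 gave -0.11 against stress and -0.35 against control, and its groups overlapped in both.

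Usp30, which sits on the outer mitochondrial membrane and opposes removal of mitochondria by parkin, was at 9.43, 9.31 and 9.34 with agomelatine and at 9.52, 9.55 and 9.74 with stress. The groups did not overlap. Usp30 fell by 0.24 (SE 0.072) against stress, with an adjusted p of 0.0362 by limma. The call was lost without stress 2, stress 3, agomelatine 2 or agomelatine 3, with an adjusted p of up to 0.169, and the gene passed in 6 of 14 alternatives. Against control the difference was -0.13, with an adjusted p of 0.295, and the repeat control arrays lay 0.19 below the first ones on average.

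Usp19, which is anchored in the endoplasmic reticulum, was at 10.22, 10.22 and 10.24 with agomelatine, the tightest of its 6 groups, and at 10.34, 10.45 and 10.47 with stress. All animals of the other 5 groups lay higher. Usp19 fell by 0.19 (SE 0.051) against stress, with an adjusted p of 0.0227 by limma, and lay -0.16 from control, with an adjusted p of 0.0516. The call against stress held in 9 of 14 alternatives and was lost in 5, with an adjusted p of up to 0.104 by limma. Among the losses were the fits without stress 2, stress 3 or agomelatine 1, with adjusted p of 0.0848, 0.0892 and 0.0569.

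**Figure D3:**
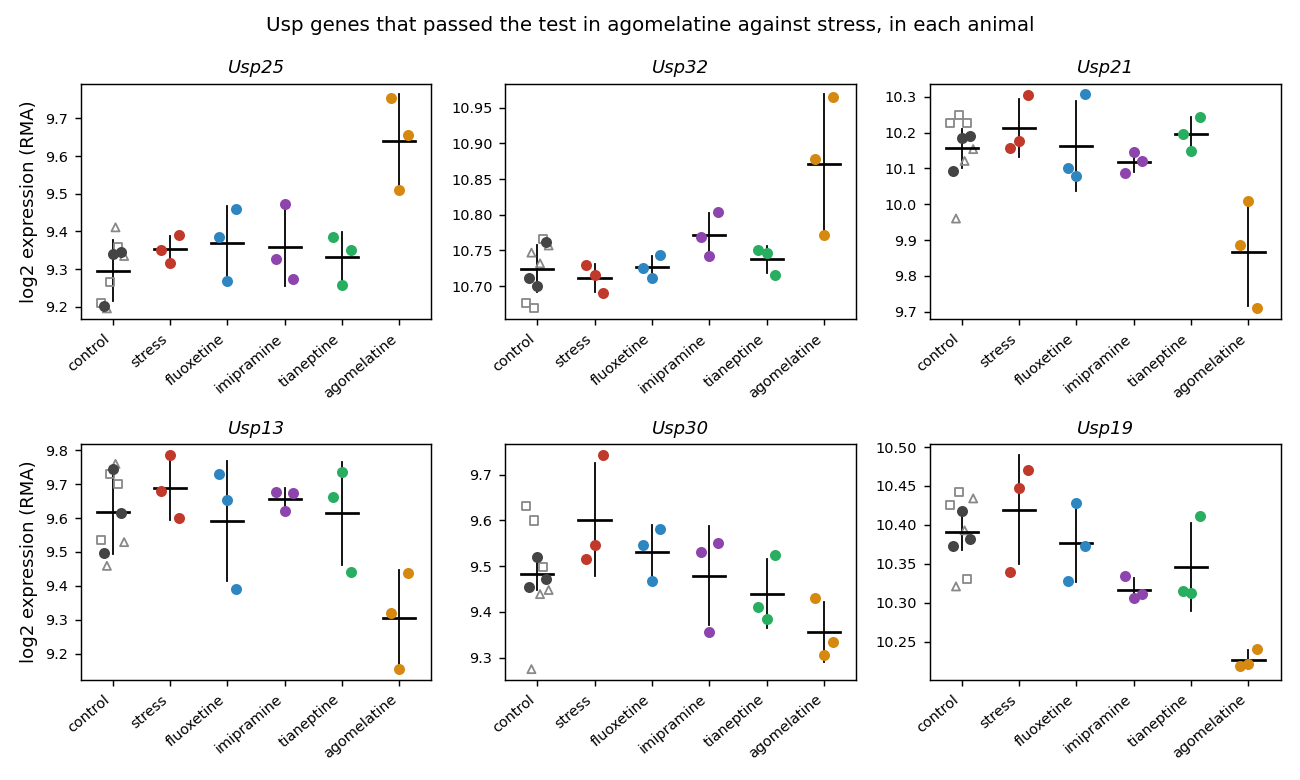
Log2 expression (vertical axes, which differ between panels) in each of the 6 groups (horizontal axis) for the 6 Usp genes that passed the test in agomelatine against stress. Filled points are animals, bars the mean and SD of 3 animals, and open squares and triangles the first and repeat arrays of the control animals. The lowest agomelatine animal for Usp25, at 9.51, lies above all animals of the other groups. The highest for Usp21, at 10.01, lies below them, but above the repeat array of control 1, at 9.96.

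The count against stress was 1 without stress 2 (Usp21), 3 without stress 3 (Usp13, Usp21 and Usp25) and 3 without agomelatine 1 (Usp13, Usp21 and Usp30). The count against control was 1 without control 2 and 1 without control 3, Usp25 in each. Cell type markers moved with the agomelatine group. All 10 tested oligodendrocyte genes, of 11 listed, passed the test as higher than in control and than in stress. Of all tested genes 5.28% passed as higher than in control and 4.18% as higher than in stress. In the agomelatine animals the score of the list was 0.426 to 0.799, and it was at most 0.0395 in the 15 others. The score of 6 pyramidal neuron genes was 0.113 to 0.709 with agomelatine, and outside that group only stress 3, at 0.382, lay above 0.113. The score of 5 granule neuron genes was -0.354 to -0.195 with agomelatine and at least -0.0993 in the others.

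Choroid plexus genes were high in agomelatine 1, with a score of 3.21 over 6 genes, and in stress 1, at 0.788. Without these 2 animals, an alternative chosen after seeing the data, Usp19, Usp21 and Usp30 passed against stress and Usp3 alone passed against control. The part of the cell type markers in these results was not tested.

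Agomelatine against the other drugs compares unlike doses and vehicles. Usp25 and Usp21 passed in all 3 comparisons. Usp25 was higher by 0.27 than with fluoxetine, by 0.28 than with imipramine and by 0.31 than with tianeptine, with adjusted p of 0.0279, 0.0258 and 0.0126 by limma, and passed in 10, 11 and 11 of 14 alternatives (adjusted p up to 0.116, 0.117 and 0.0615). Usp21 lay -0.29, -0.25 and -0.33 from the same drugs, with adjusted p of 0.0168, 0.0428 and 0.00835, and passed in 11, 5 and 14 of 14 alternatives (adjusted p up to 0.0756, 0.141 and 0.0331). The comparisons share the agomelatine animals, and 4 Usp genes passed in each, where 11.8%, 9.39% and 13.5% of all tested genes passed.

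The remaining calls fell on other members. Usp13 lay -0.35 from imipramine and -0.31 from tianeptine (adjusted p 0.0298 and 0.0423 by limma), and passed in 9 and 7 of 14 alternatives. Usp2 lay -0.26 and Usp42 -0.20 from fluoxetine (adjusted p 0.0466 and 0.0478), and they passed in 3 and 4 of 14 alternatives, with an adjusted p of up to 0.211 and 0.157. Usp42 was at 9.56, 9.51 and 9.48 with agomelatine and at 9.72, 9.71 and 9.73 with fluoxetine, without overlap. Usp3, a histone deubiquitinase, was at 8.22, 8.002 and 8.05 with agomelatine and at 8.46, 8.46 and 8.24 with tianeptine. The groups did not overlap, and Usp3 lay -0.29 from tianeptine (adjusted p 0.0246), a call held in 9 of 14 alternatives.

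Usp20 was at 9.62, 9.63 and 9.60 with agomelatine, above all imipramine animals. It was higher by 0.24, with an adjusted p of 0.0499 by limma, and passed in 2 of 14 alternatives. Among fluoxetine, imipramine and tianeptine 0 Usp genes passed in the 3 comparisons, where 0% of all genes passed. At an unadjusted p under 0.05 there were 7 Usp genes in imipramine against fluoxetine (11% of all tested genes), 0 in tianeptine against fluoxetine (4.45%) and 4 in tianeptine against imipramine (6.15%). The 12 calls over the 6 pairs of drugs became 6, 6 and 5 without imipramine 1, 2 or 3, 7 and 6 without tianeptine 1 or 2, and 7 and 6 without agomelatine 1 or 3.

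Each role was held by few members. Of the 5 tested histone deubiquitinases (Usp3, Usp16, Usp21, Usp49 and Usp51) 2 lay above 0 and 3 below in agomelatine against stress. Usp21 alone of these passed, where 10.8% of all tested genes passed. Usp5, which takes free chains apart, and its relative Usp13 both lay below 0, where Usp13 fell and Usp5 was at -0.05. The 4 trafficking members Usp8, Usp10, Usp20 and Usp33 lay between -0.05 and 0.05, with 0 past the test. Over the 36 tested genes the median difference was -0.015, beside -0.025 for all tested genes, and 0.034 beside 0.024 with equal array medians. Against control it was 0.04 beside -0.01. The 4 genes below the filter were given no test, and Usp54, the other gene with a second probe set, passed in no tested comparison.

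**Figure D4:**
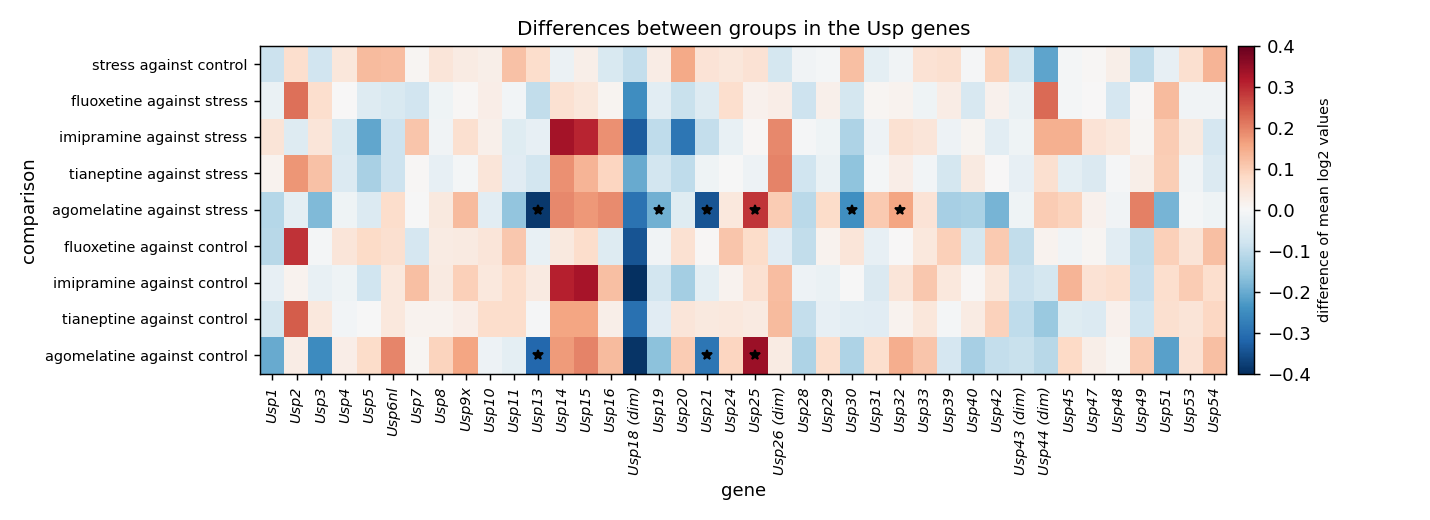
Differences of mean log2 values (colour) for the 40 Usp genes (horizontal axis) in 9 comparisons (vertical axis). Stars mark an adjusted p under 0.05, genes below the low-signal filter are labelled dim and were not tested, and imipramine against stress carries no stars because it chose the genes. Of these 9 comparisons, only agomelatine against stress (6) and against control (3) hold stars.

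**Figure D5:**
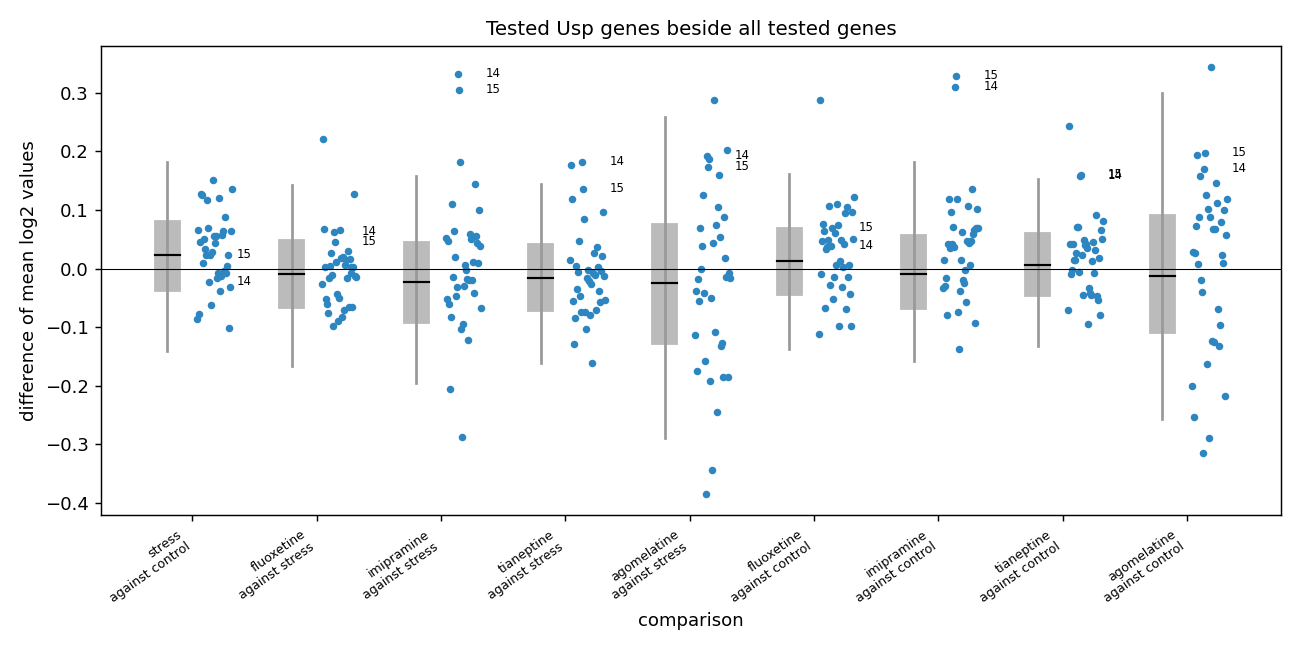
Differences of mean log2 values (vertical axis) of the 36 tested Usp genes (blue points) beside all tested genes (grey) in 9 comparisons (horizontal axis). Grey boxes span the 25th to 75th percentile, grey lines the 5th to 95th, black bars are medians, and 14 and 15 mark Usp14 and Usp15. With imipramine both genes lie above 0.30, apart from the other members.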

How the data were processed

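The deposited values are log2 expression per probe set, which the authors obtained by RMA using the program Affymetrix Expression Console 1.2, as the submitters' processing notes say. RMA removes background, equalises the distributions of the arrays and combines the probes of a set, which shrinks small differences at low signal. Of 29214 probe sets, 15310 had 1 gene symbol in the platform annotation, 323 had several and 13581 were unnamed here. All 42 Usp probe sets matched the RefSeq table of GRCr8 by gene number. The array's genome build and run dates are not given in the sources used here.

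Tests used probe sets with 1 symbol and a mean of at least 7.17 (the 25th percentile), the brightest probe set represented a gene, and repeat control arrays were averaged per animal. A model with 1 mean for each group was fitted over 18 animals in limma 3.58.1 under R 4.3.3 (12 residual degrees of freedom, eBayes with trend, checked on simulated data). The p-values were adjusted over 10804 genes by the Benjamini-Hochberg method, and an adjusted p under 0.05 passed. Precision is limited by 3 animals per group. Named genes are Usp14, Usp15, Usp4, Usp11, every Usp gene that passed in 1 of 14 comparisons, the 5 highest and 5 lowest in imipramine against stress, and up to 4 genes per partner list. Usp2 with fluoxetine and tianeptine was singled out after its values were seen. Members and lists were chosen with earlier results of these data known. Alternatives covered control arrays, scaling, filter, weights, probe sets, a replicate block and leaving out each animal.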

Additional observations from a re-analysis of the deposited data

How the results depend on the processing

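The values of single genes were followed through 14 alternatives for each Usp difference that passed the test. For Usp14 and Usp15 this covered imipramine, tianeptine and agomelatine against control and stress, and imipramine against fluoxetine. These differences kept their direction in each alternative. Other named differences, such as those of Usp2, Usp5 and Usp20 from control, were not followed. Over the alternatives of the followed differences, 366 kept their side of the threshold or, where no test was made, moved by less than the spread between animals. In the others 116 lost the call and 8 gained it. For imipramine against control the count of Usp genes that passed, 0, became 2 with the repeat control arrays alone and 2 with array weights. Both times these were Usp14 and Usp15, which were chosen because the same imipramine animals were high, so these calls are no independent test. For agomelatine against control the count of 3 became 8 with the first control arrays alone, 1 with the repeat arrays alone, 6 when all 21 arrays entered with a random block for the animal, 7 at an adjusted p under 0.1, and 1 without stress 1 and agomelatine 1 (chosen after seeing the data). Leaving out 1 animal gave 1 to 4. The share of all tested genes that passed was counted in the main fit only. Counts of Usp genes under the alternatives, here and in the other paragraphs, therefore have no background share beside them.

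For agomelatine against stress the count of 6 became 2 with array weights, 10 at an adjusted p under 0.1 and 3 without stress 1 and agomelatine 1, and leaving out 1 animal gave 1 to 5. Over the 6 pairs of drugs the 12 calls became 7 with no filter on low signal and 24 at an adjusted p under 0.1, and leaving out 1 animal gave 5 to 11. The other counts were 0 in each fit without 1 animal. Rescaling to equal array medians moved the median of all tested genes by under 0.1 in each comparison, and the splits of the family and of the proteasome genes around 0 moved with it as given above.

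Replicate numbers did not pair the animals. Over 45 pairs of arrays with the same number in different groups the median correlation of deviations was -0.0167, and over 90 pairs with different numbers 0.00762. With the replicate block the count was 3 in agomelatine against control, 5 in agomelatine against stress, 8 over the pairs of drugs and 0 in the other comparisons with control or stress.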

Other observations

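Of 2 tested genes for enzymes that activate ubiquitin, 1 passed with agomelatine. Uba6, which activates ubiquitin and the ubiquitin-like Fat10, rose by 0.38 (SE 0.073) against control and by 0.35 against stress, with adjusted p of 0.00396 and 0.00669 by limma. Among the 23 tested deubiquitinases of other families 3 passed against stress, where 10.8% of all tested genes passed. Uchl3, a hydrolase that frees ubiquitin from small adducts, rose by 0.32 (adjusted p 0.00835), and Otud6b rose by 0.40 (adjusted p 0.0146). Otud5 fell by 0.30 (adjusted p 0.0141). Against control Uchl3 alone of these passed, at 0.24 with an adjusted p of 0.037, where 9.59% of all tested genes passed. The shares of the 23 genes that passed lay near those of all genes. Of the 13 core and 22 cap genes of the proteasome 0 passed in either comparison, with 2 and 0 at an unadjusted p under 0.05 against stress, where 27% of all tested genes were under it, and 3 and 3 against control, where 25.4% were. These comparisons share the agomelatine animals, in which the cell type markers described above moved, and the part of those markers was not tested.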
